A study of Caenorhabditis elegans with 48 samples.

Results

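The regions described here had LIN-35 peaks in the somatic libraries of first-stage larvae, but no peak of its E2F partners EFL-1 and DPL-1 in those libraries. Peaks of all 23 deposited peak lists that overlapped by at least 1 bp were merged into 24318 regions, and a region was kept when both somatic LIN-35 libraries had a peak in it and none of the 4 somatic EFL-1 and DPL-1 libraries did. This gave 465 regions. They are called LIN-35-only regions below, a name that refers to the somatic peak lists alone. These lists held 5097 and 5918 peaks for LIN-35, 4140 and 3394 for DPL-1, and 1588 and 4540 for EFL-1. A missing EFL-1 or DPL-1 peak does not show that the protein was absent. The remaining 2739 of the 3204 regions with both somatic LIN-35 peaks also had a somatic EFL-1 or DPL-1 peak, and are called co-bound. A peak is an interval in which the authors' peak caller, PeakSeq, found more sequenced fragments in the anti-GFP chromatin immunoprecipitate than in input DNA, at a q-value (a p-value corrected for multiple tests) of at most 0.01.

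All strains were Caenorhabditis elegans unc-119(ed3) III animals carrying an integrated transgene with unc-119(+), in which the factor was fused to GFP:FLAG, and each strain was 1 transgenic line. The ges-1 promoter drove LIN-35, HPL-2, DPL-1 or EFL-1 in the intestine of L1 larvae (9 libraries). The lin-35, efl-1 or dpl-1 promoter drove its own factor in L1 larvae (6 libraries, called somatic). The pie-1 promoter drove LIN-35, DPL-1 or EFL-1, and the mex-5 promoter drove LIN-35, in the germline of young adults (8 libraries). Chromatin came from whole animals, and all germline strains were young adults while all intestinal strains were L1 larvae, so tissue and stage cannot be told apart. The 6 somatic lists chose the regions, so everything given about them is description. The 17 intestinal and germline lists played no part in the choice of the 465 regions beyond the merging. The intestine is itself a somatic tissue and was part of the L1 larvae behind the somatic lists. Intestinal occupancy is therefore not independent of the rule, above all for EFL-1 and DPL-1.

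LIN-35 is the only pocket protein of C. elegans, the relative of the mammalian retinoblastoma protein. It has no DNA-binding domain of its own and is known for reaching chromatin through the E2F-DP heterodimer, of which EFL-1 is the E2F and DPL-1 the DP subunit, within the DRM complex. HPL-2 is a heterochromatin protein 1 homolog that acts with LIN-35 in the synthetic multivulva B pathway. In the soma these proteins are known for keeping germline genes silent.

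Sequences from the study's list of motif matches fell in 3 of the 465 regions on chromosomes II and X, and are shown because no other sequence of these regions was at hand. Each is printed 5′ to 3′ on the strand of the match, in WS180 coordinates of the region, with the listed match in capitals and flanks in lower case. In the first region, chrX:2215001-2215693 at the start of peb-1, which encodes a DNA-binding protein of the pharynx, 2 matches from the study's intestine-specific sites were listed on opposite strands.
chrX:2215001-2215693, minus strand, motif that the study names GATA: gtgccatttgAACTGATAACC
chrX:2215001-2215693, plus strand, motif that the study names somatic E2F: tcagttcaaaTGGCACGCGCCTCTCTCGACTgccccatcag
chrII:3054394-3055323, plus strand, intestine-specific site without a known factor: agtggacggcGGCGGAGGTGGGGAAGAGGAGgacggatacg
chrII:6842187-6845365, minus strand, germline-specific site, motif that the study names germline E2F: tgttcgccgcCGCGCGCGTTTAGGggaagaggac
The second region held the start of lido-13 and the third that of egl-27, which encodes a relative of the MTA subunits of histone deacetylase complexes. The peb-1 region had peaks in 5 intestinal libraries and no germline library. Its q-value was 8.95e-20 in intestinal LIN-35 replicate 1, 0.00301 in LIN-35 replicate 2, 2.18e-06 in HPL-2 replicate 1, 0.00741 in HPL-2 replicate 2 and 4.74e-09 in DPL-1 replicate 1. The lido-13 region had peaks in 5 intestinal and 4 germline libraries. The egl-27 region had peaks in 6 intestinal and 3 germline libraries.

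The LIN-35-only regions were weak LIN-35 regions. The q-value that the region reached in both somatic LIN-35 libraries (the larger of the pair) had a median of 0.00183 over the 465 LIN-35-only regions, against 4.51e-07 over the 2739 co-bound regions. In somatic LIN-35 replicate 1 the median rank of their peaks was 2931 of 5097, against 1434 of 5097 for co-bound regions. In replicate 2 it was 3433 of 5918, against 1422 of 5918. The share of regions without EFL-1 or DPL-1 differed along this scale: 28 of the LIN-35-only regions had a larger q-value below 1e-06 and made up 1.90% of all regions in that band, while 273 of them lay between 0.001 and 0.01 and made up 35.3% of that band. Peaks were also narrower, with a median width of 341 bp in replicate 1 and 353 bp in replicate 2, against 434 bp and 471 bp at co-bound regions.

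The edge of the rule ran through such weak peaks. Just inside it, the LIN-35-only region at chrV:10287100-10287292 had somatic LIN-35 q-values of 0.00255 and 0.00998. Just outside it, the co-bound region at chrV:13371099-13372179 was held there by 1 DPL-1 peak with q = 0.00999. In all, 266 co-bound regions rested on a peak in exactly 1 of the 4 somatic EFL-1 and DPL-1 libraries, and in 129 of these that peak had a q-value of 0.001 or more. The rule itself kept somatic EFL-1 and DPL-1 peaks out of the LIN-35-only regions. Their median distance to the nearest such peak was 5729 bp, and 50 of the 465 lay within 1000 bp of one. The distance was not computed for other regions, so it has no scale and does not show that these regions lay far from E2F peaks.

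Intestinal LIN-35 had a peak in 150 LIN-35-only regions in replicate 1 (32.3%) and in 44 in replicate 2 (9.46%), beside 29.2% and 8.19% of all 24318 regions. Both shares were near those of all regions, which lay inside the 95% Wilson intervals of 28.2 to 36.6% and 7.12 to 12.5% for the LIN-35-only regions. The co-bound regions were at 88.4% in replicate 1 and 48.4% in replicate 2. Of the 44 regions in replicate 2, 43 were also among the 150 of replicate 1, so the shorter list was nested in the longer one, which held 7283 peaks against 2125.

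HPL-2 was assayed in the intestine only. Intestinal HPL-2 had a peak in 175 of the LIN-35-only regions in replicate 1 (37.6%), in 40 in replicate 2 (8.60%) and in 147 in replicate 3 (31.6%). All regions were at 27.4%, 6.46% and 18% in these libraries, and co-bound regions at 83.8%, 29.9% and 52.4%. HPL-2 replicate 3 was the library in which LIN-35-only and co-bound regions differed least, and the 22 input samples at hand held none labelled for it. Peaks of both LIN-35 and HPL-2 in replicate 1 lay in 135 LIN-35-only regions (29.0%, against 20.6% of all regions), which was 90% of those with LIN-35 and 77.1% of those with HPL-2. At co-bound regions the same overlap was 92.2% of those with LIN-35 and 97.3% of those with HPL-2. At 94 of the 465 regions HPL-2 had a peak in 1 or more replicates and intestinal LIN-35 had none (20.2%, against 15.2% of all regions).

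The intestinal lists of DPL-1, at 7556 and 2814 peaks, were longer than those of EFL-1, at 1988 and 1249, so their counts are not on one scale. Intestinal DPL-1 replicate 1 had a peak in 209 LIN-35-only regions (44.9%, against 28.3% of all regions), the highest number of the 17 libraries, although no region of the set had a somatic DPL-1 peak. DPL-1 replicate 2 had a peak in 32 (6.88%, against 11% of all regions). Intestinal EFL-1 had a peak in 4 of the 465 regions in replicate 2 (0.860%, against 7.9% of all regions) and in 0 in replicate 3 (against 5.05% of all regions), and 0 of 465 allows a share of up to 0.645%. The same EFL-1 libraries had peaks in 56.4% and 39.2% of the co-bound regions. Among the 1249 peaks of smallest q-value in each list DPL-1 had 1 and 0 of the regions and EFL-1 0 and 0. DPL-1 without EFL-1 was recorded at 210 LIN-35-only regions when replicates were joined (45.2%, against 37.3% of co-bound and 21.3% of all regions). Of the 209 regions of DPL-1 replicate 1, 131 also had intestinal LIN-35 replicate 1 (62.7%). This overlap was lower than at co-bound regions (92.9%) and among all regions (5063 of the 6877 with DPL-1 replicate 1). LIN-35, HPL-2 and DPL-1 all had peaks in replicate 1 at 120 regions (25.8%, against 17.2% of all regions), and 13 had LIN-35 and HPL-2 in replicate 1 with no intestinal DPL-1 or EFL-1 peak in any library (2.80%, against 3.35% of all regions).

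**Figure D1:**
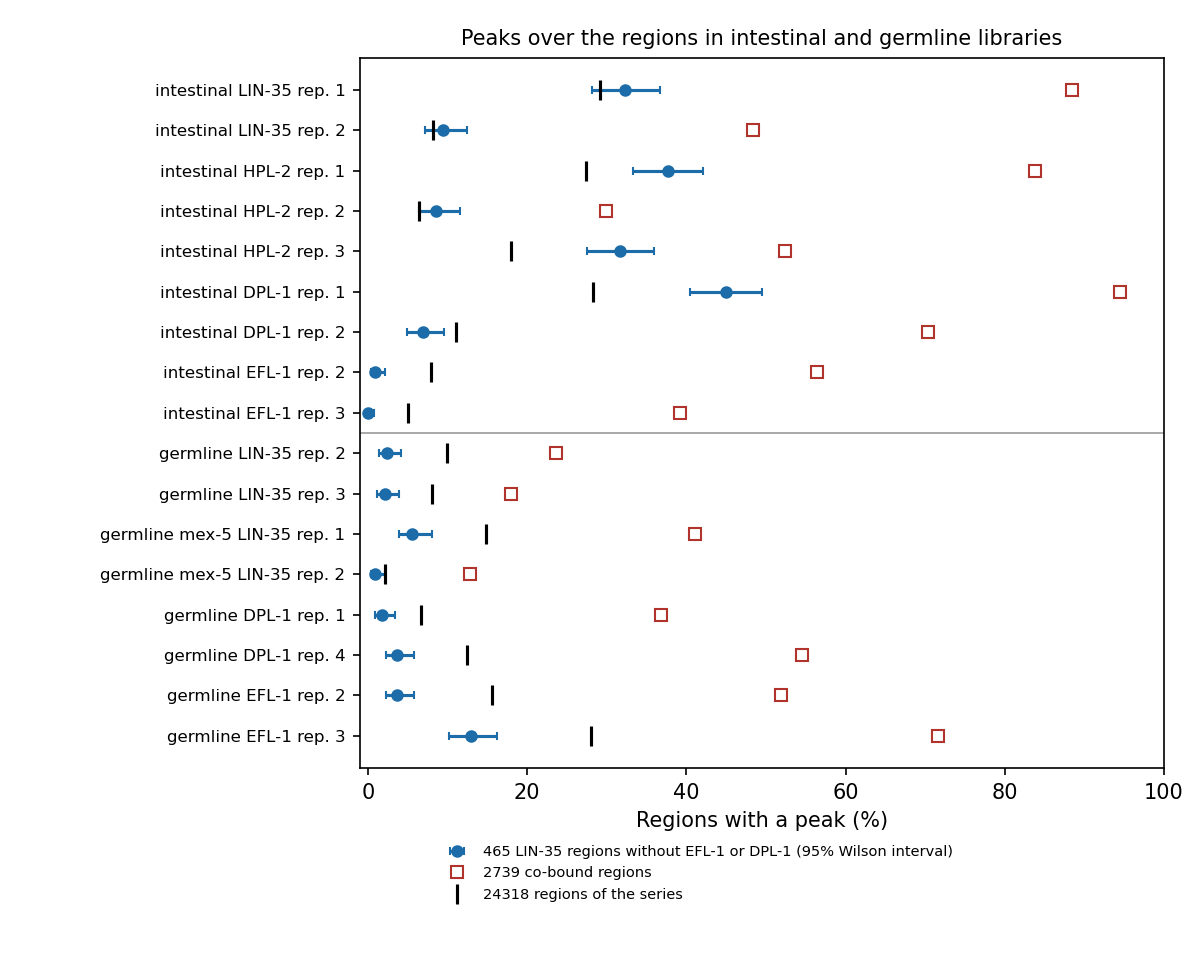
Percent of regions with a peak (x axis) in each of the 9 intestinal and 8 germline libraries (rows): filled circles are the 465 LIN-35-only regions with 95% Wilson intervals, which cover counting error only, open squares the 2739 co-bound regions and black ticks all 24318 regions. The LIN-35-only regions lie left of the co-bound regions in all 17 libraries, at 0% and 0.860% for intestinal EFL-1 and at up to 44.9% for intestinal DPL-1 replicate 1.

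In the germline few LIN-35-only regions were bound. Germline LIN-35 under the pie-1 promoter had a peak in 11 regions in replicate 2 (2.37%, against 9.88% of all regions) and 10 in replicate 3 (2.15%, against 7.99%). These replicates shared 0 of the LIN-35-only regions and 318 co-bound regions (49.2% of those in replicate 2 and 64.8% of those in replicate 3). With counts of 11 and 10 the 0 says little about overlap, and the overlap over all regions is not given here. Under the mex-5 promoter there were 26 regions in replicate 1 (5.59%, against 14.8%) and 4 in replicate 2 (0.860%, against 2.11%). A peak in 2 or more of these 4 LIN-35 libraries was found at 4 of the 465 regions (0.860%), against 721 co-bound regions (26.3%) and 4.48% of all regions.

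Germline DPL-1 had a peak in 8 LIN-35-only regions in replicate 1 (1.72%, against 6.7% of all regions) and in 17 in replicate 4 (3.66%, against 12.5%). Germline EFL-1 had a peak in 17 regions in replicate 2 (3.66%, against 15.6%) and in 60 in replicate 3 (12.9%, against 28%). In all 8 germline libraries the share of LIN-35-only regions was thus below that of all regions, and among the 9 intestinal libraries it was below it in EFL-1 and in DPL-1 replicate 2. Each share of all regions counts the library's own peaks among the 24318, so it is a scale and not a control. EFL-1 itself had fewer of these regions in the intestine, at 4 and 0, than in the germline, at 17 and 60, where its lists were longer, at 4018 and 7074 peaks.

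Taking tissues as groups of libraries, the LIN-35-only regions had a peak in 19.1 ± 17.3% of cases in intestinal libraries (SD, n = 9) and in 4.11 ± 3.84% in germline libraries (SD, n = 8). These groups differed in factors as well as in tissue and stage. HPL-2 had intestinal libraries only, and LIN-35 made up 2 of the 9 intestinal and 4 of the 8 germline libraries. Libraries of the same strain also shared a transgene, which the test over libraries does not take into account. The difference of 15.03 percentage points had p = 0.039 in a two-sided exact permutation test over libraries, and adjusted p = 0.089 over the 4 tests of this kind (Benjamini-Hochberg), so it did not pass the correction. List length moved with it. With the 1249 peaks of smallest q-value per library (the length of the shortest intestinal list, an alternative chosen after seeing the data) the difference was 1.90 points, with exact permutation p = 0.13. When each library was scaled by its own share of co-bound regions, the tissues were not told apart: the log2 ratio of the LIN-35-only share to the co-bound share averaged -2.92 ± 2.63 in intestinal libraries (SD, n = 9) and -3.41 ± 0.62 in germline libraries (SD, n = 8), a difference of 0.49 with exact permutation p = 0.64.

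For LIN-35 alone the same log2 ratio was -1.45 and -2.34 in intestinal libraries, against -3.26, -2.99, -2.85 and -3.73 in germline libraries, so the groups did not overlap. The mean difference was 1.31, and its exact permutation p of 0.067 is the smallest that 2 against 4 libraries can give. With 1249 peaks per library the difference was 0.02 (exact permutation p = 0.93). Across all 17 libraries the ratio was below 0, with a mean of -3.15 ± 1.92 (SD). Against co-bound regions weighted to the same shares in 10 bands of the larger somatic LIN-35 q-value, the ratio was again below 0 in 17 of 17, with a mean of -2.44. The match was coarse, since the strongest band had no lower limit. The smallest larger q-value was 3.55e-15 for LIN-35-only and 1.45e-101 for co-bound regions.

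**Figure D2:**
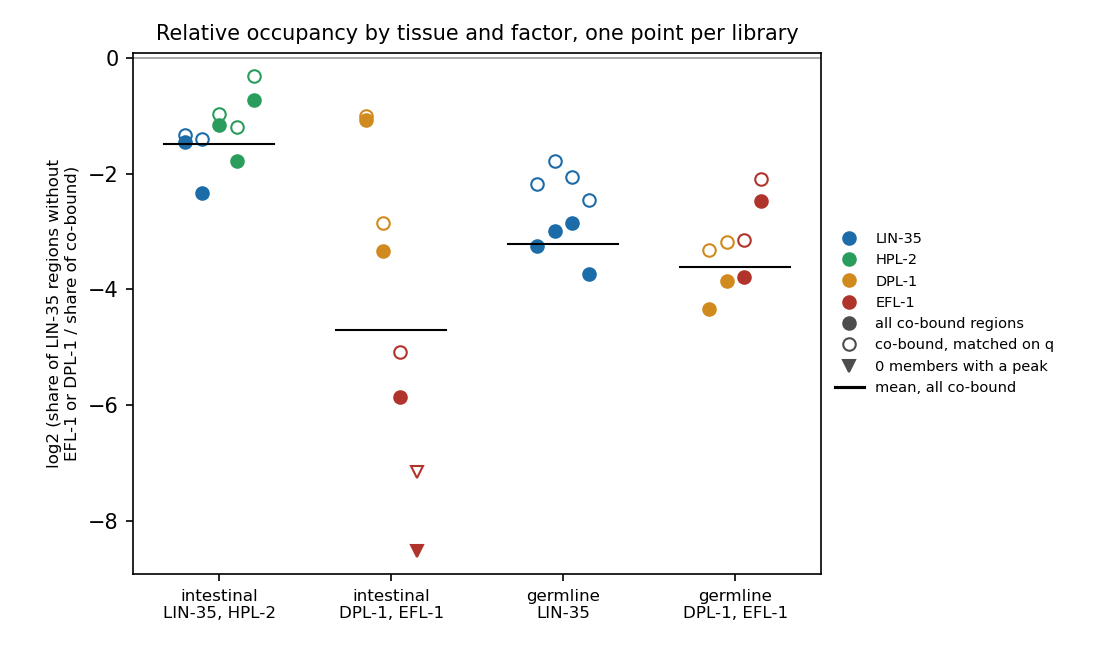
Log2 ratio of the share of LIN-35-only regions with a peak to the share of co-bound regions with a peak (y axis) in each of the 17 libraries, grouped by tissue and factor; filled symbols use all co-bound regions, open symbols co-bound regions matched on somatic LIN-35 q-values, lines are means of the filled symbols, and triangles mark the library with 0 LIN-35-only regions. Intestinal LIN-35 and HPL-2 lie between -0.73 and -2.34, while intestinal DPL-1 and EFL-1 spread between -1.07 and -8.51.

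Within the intestine the ratio was higher for LIN-35 and HPL-2 than for EFL-1 and DPL-1. It was -1.45 and -2.34 for LIN-35 and -1.15, -1.78 and -0.73 for HPL-2, against -1.07 and -3.33 for DPL-1 and -5.87 for EFL-1 replicate 2. EFL-1 replicate 3, with 0 regions, stood at -8.51 after 0.5 was added to each count, a value that depends on that addition. The difference in means was 3.21, with exact permutation p = 0.048 and adjusted p = 0.089, and the groups overlapped through DPL-1 replicate 1. The rule favoured this order, because it required LIN-35 and barred EFL-1 and DPL-1 in larvae of the same stage. The co-bound divisor in turn required a somatic EFL-1 or DPL-1 peak. The p is therefore no separate support for a factor difference. The months in the labels ran with the factors: LIN-35 replicate 1, the 3 HPL-2 libraries and DPL-1 replicate 1 were labelled March, and the other 4 intestinal libraries May or June. LIN-35 replicate 1 and the 3 HPL-2 libraries carried the same day, so 4 of the 5 LIN-35 and HPL-2 libraries shared a label date, which the permutation test does not take into account. Among the March libraries DPL-1 replicate 1 (-1.07), of a later day, was not below the other 4 (-0.73 to -1.78). Among the May and June libraries LIN-35 replicate 2 (-2.34) was above DPL-1 (-3.33) and EFL-1 (-5.87 and -8.51).

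Shortened lists of equal length gave the factors different counts. Among the 1249 peaks of lowest q-value in each list, intestinal LIN-35 had 10 and 20 LIN-35-only regions and HPL-2 had 34, 27 and 37. Intestinal DPL-1 had 1 and 0, and EFL-1 had 0 and 0. The groups did not overlap, and p = 0.0079 in the exact permutation test was the smallest that 5 against 4 libraries can give; this comparison was added after the data were seen. All regions were at 4.71% to 5.09% in these 9 shortened lists, so the HPL-2 counts, at 7.31%, 5.81% and 7.96% of the LIN-35-only regions, were above that scale and the LIN-35 counts, at 2.15% and 4.30%, below it. With 558 peaks per list, the length of the shortest list of all, LIN-35 had 4 and 2 regions and HPL-2 11, 7 and 11. Each of the 4 intestinal DPL-1 and EFL-1 libraries had 0. The HPL-2 shares, 2.37%, 1.51% and 2.37%, were near or below the 2.25%, 2.13% and 2.14% of all regions. The LIN-35 shares, 0.860% and 0.430%, were below the 2.29% and 2.25% of all regions. Of the 209 regions of intestinal DPL-1 replicate 1 in its full list, 154 had a DPL-1 q-value below 0.001 (73.7%). At co-bound regions it was 2521 of 2588 (97.4%), and in the whole list 6008 of 7556 peaks. The median DPL-1 q-value was 4.14e-05 at the LIN-35-only and 8.12e-28 at the co-bound regions. Germline libraries had 3 to 10 LIN-35-only regions among 1249 peaks, whichever the factor; the mex-5 LIN-35 replicate 2 list entered whole, with 558 peaks.

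**Figure D3:**
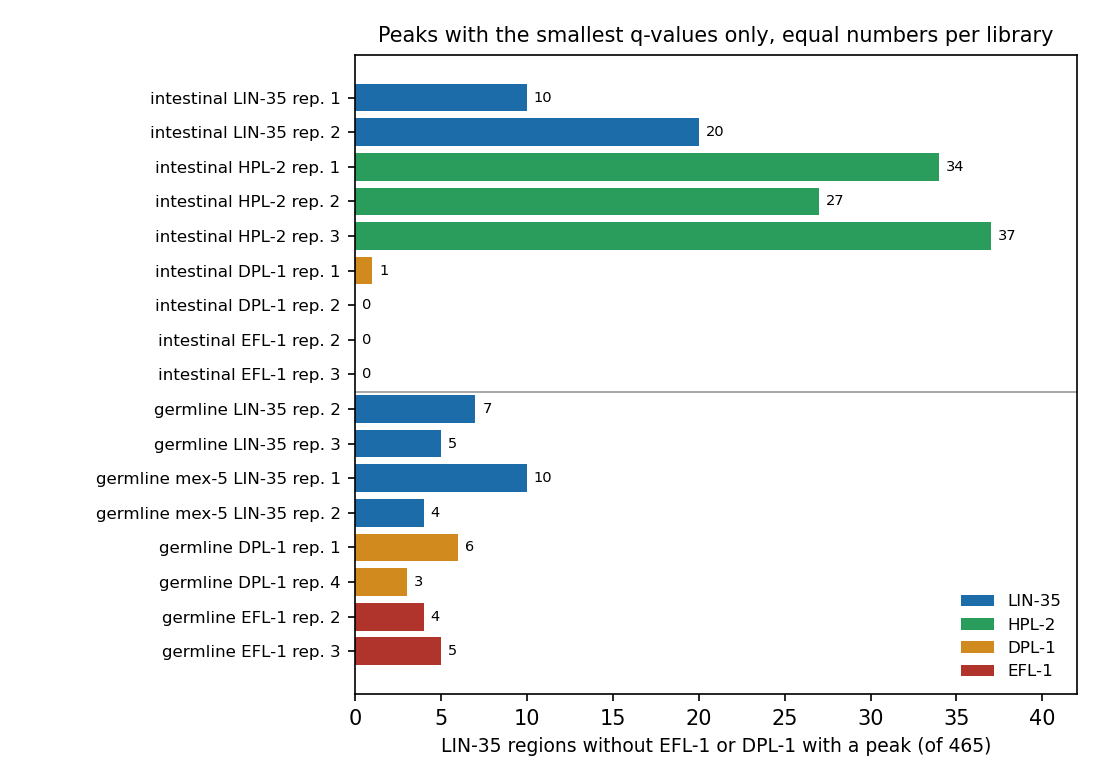
Number of the 465 LIN-35-only regions with a peak (x axis) when each intestinal and germline list (rows) was cut to its 1249 peaks of smallest q-value; 1 list, germline mex-5 LIN-35 replicate 2, held only 558. Intestinal LIN-35 and HPL-2 have 10 to 37 regions, intestinal DPL-1 and EFL-1 have 0 or 1, and germline libraries 3 to 10.

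The regions fell into classes by where else they were bound. A peak in none of the 17 libraries was the state of 156 LIN-35-only regions (33.5%), against 53 co-bound regions (1.94%) and 12.2% of all regions. An intestinal peak without a germline peak was found at 210 (45.2%), against 488 co-bound regions (17.8%) and 34.4% of all regions. Peaks in both tissues were found at 77 (16.6%), against 2182 co-bound regions (79.7%) and 16.8% of all regions. A germline peak alone was found at 22 (4.73%), against 16 co-bound regions (0.584%) and 36.6% of all regions. A peak in exactly 1 of the 17 libraries was found at 94 LIN-35-only regions (20.2%), against 52% of all regions. Intestinal DPL-1 replicate 1 alone made up 32 of these (6.88% of the LIN-35-only regions, against 4.37% of all regions) and HPL-2 replicate 3 alone 28 (6.02%, against 6.23%). No LIN-35-only region reached more than 11 of the 17 libraries, whereas 83 co-bound regions had peaks in all of them.

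**Figure D4:**
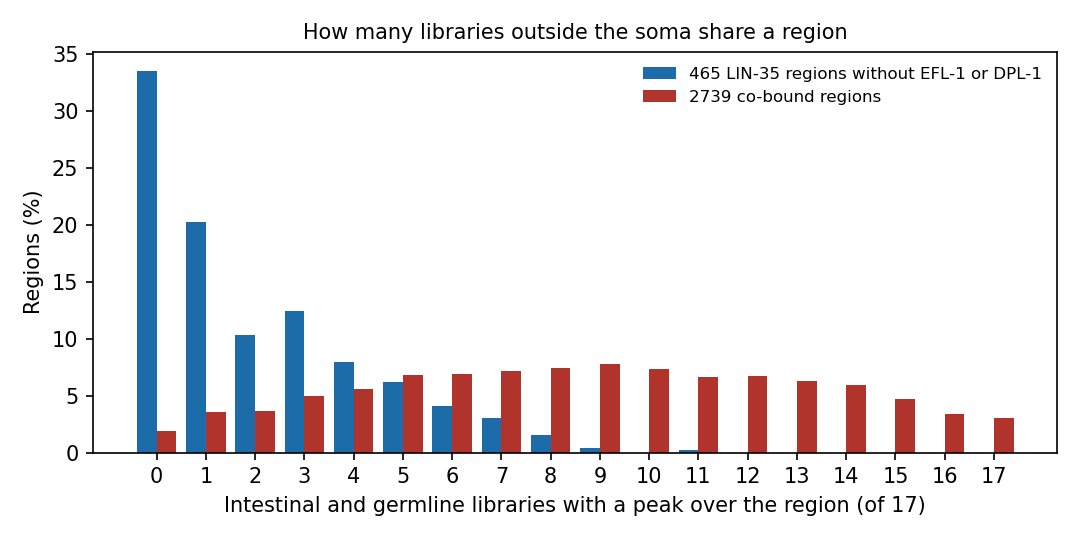
Percent of regions (y axis) by the number of intestinal and germline libraries, of 17, with a peak in the region (x axis), for the 465 LIN-35-only regions (left bars) and the 2739 co-bound regions (right bars). At 0 libraries stand 33.5% of the LIN-35-only and 1.94% of the co-bound regions, and no LIN-35-only region stands above 11.

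**Figure D5:**
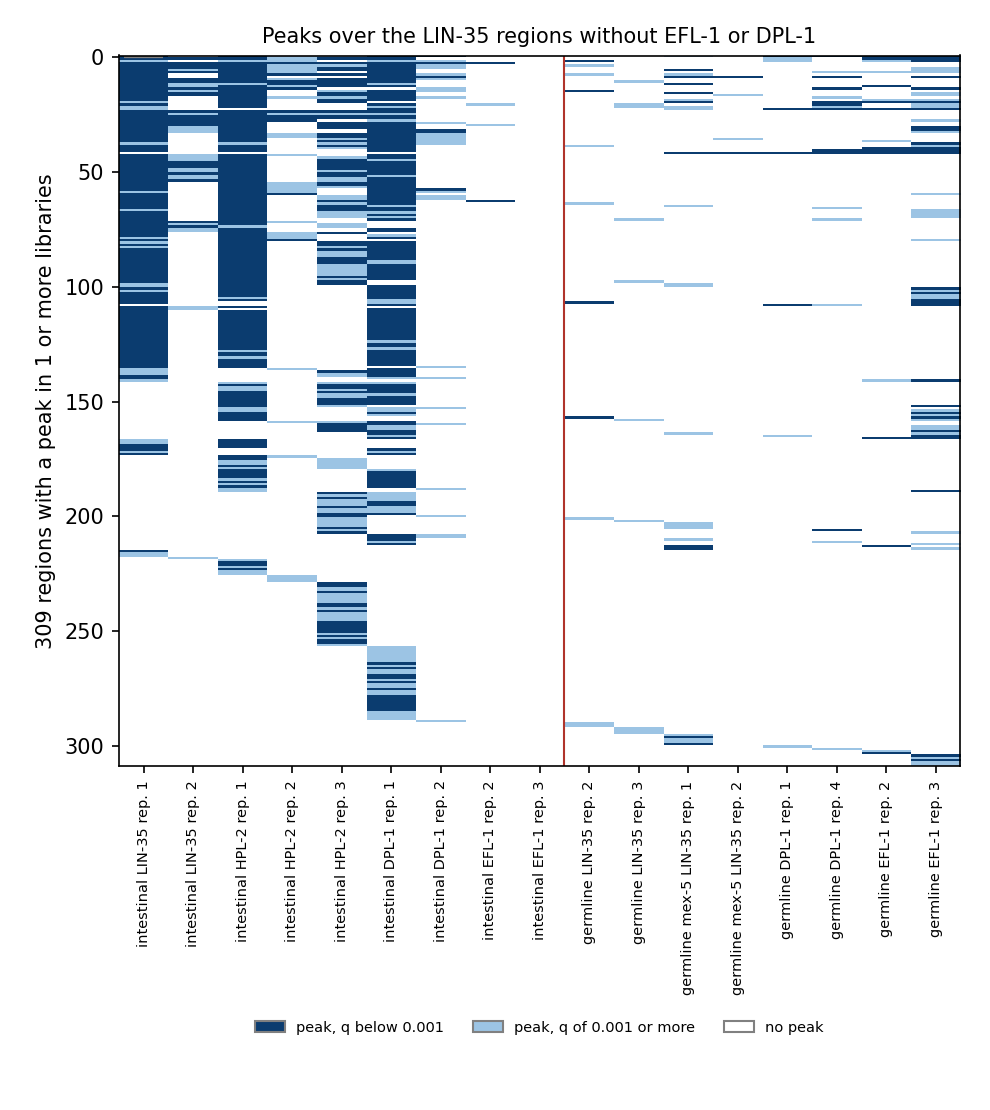
Each row is one of the 309 LIN-35-only regions with a peak in 1 or more of the 17 libraries (columns, intestinal left of the red line and germline right of it), ordered by the number of libraries; dark cells are peaks with q below 0.001 and light cells peaks with q of 0.001 or more. LIN-35, HPL-2 and DPL-1 replicate 1 share most rows at the top, and the EFL-1 columns of the intestine hold 4 and 0 regions.

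The class without any intestinal or germline peak held the weaker and narrower regions. Its median larger q-value was 0.00257, against 0.00136 for the 287 regions with an intestinal peak. Its median region width was 376.5 bp, against 652 bp, although a region grows with each peak merged into it. None of these 156 regions was 1500 bp or longer, whereas 27 of the 287 were. Among the 28 strongest LIN-35-only regions (larger q-value below 1e-06), 23 had an intestinal peak (82.1%) and 6 a germline peak (21.4%). Co-bound regions of that band were at 99.6% and 92.5%, and all 24318 regions, whatever their q-values, at 51.25% and 53.4%.

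The X chromosome carried 96 of the 465 LIN-35-only regions, or 20.6% (95% Wilson interval 17.2 to 24.6%), against 12.8% of co-bound regions (11.6 to 14.1%) and 18.9% of all regions. Chromosome IV carried 97 and chromosome III 85. On X, 25 of the 96 regions (26.0%) had a germline peak, against 74 of the 369 on autosomes (20.1%). For co-bound regions these shares were 75.4% on X and 81.0% on autosomes. Shares over all regions were not split by X and autosomes, so these counts and those below have no such scale. Intestinal HPL-2 in replicates 1 and 2 was found at 13 of the 96 regions on X (13.5%) and 22 of the 369 on autosomes (5.96%). Co-bound regions were at 44.9% on X and 26.8% on autosomes. HPL-2 in 1 or more replicates did not show this order, at 45.8% of the LIN-35-only regions on X and 51.2% on autosomes, nor did any intestinal peak, at 55.2% and 63.4%.

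Named regions show what these classes look like. The region with the smallest larger q-value, chrIV:10341596-10342828, lay 1068 bp from the listed start of unc-43, which encodes the calcium and calmodulin-dependent protein kinase II. Its somatic LIN-35 q-values were 3.55e-15 and 1.8e-18, and it had peaks of intestinal LIN-35 replicate 1 (2.37e-14), of HPL-2 in all 3 replicates (7.26e-08, 0.00225 and 1.06e-13) and of DPL-1 in both (5.89e-07 and 0.0047), and none of EFL-1. No germline library had a peak there.

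The other strong regions differed from it. At chrIII:668095-668753 the somatic q-values were 7.05e-10 and 1.9e-21, and the only other peak was germline mex-5 LIN-35 replicate 1 (0.00101). At chrX:5685995-5686645, chrII:7593071-7593636 and chrIV:8182888-8183762 the only other peak was 1 intestinal HPL-2 peak each, with q-values of 0.00123, 4.19e-05 and 6.07e-05. At chrIV:3168692-3169278 there was no other peak at all. In all, 5 of the 10 strongest regions had a peak in at most 1 of the 17 libraries. This was not particular to the strongest regions. Of all 465 LIN-35-only regions, 33.55% had a peak in none of the 17 and 20.2% in exactly 1. Of all 24318 regions, these shares were 12.2% and 52%. At chrII:13678198-13679156, inside the transcript of rpoa-1, a subunit of RNA polymerase I, intestinal LIN-35 replicate 1 had q = 7.45e-29 and HPL-2 replicate 1 had q = 5.1e-23.

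The remaining strong regions were chrV:10039730-10040338, with 6 intestinal and 2 germline libraries, and chrIII:9700849-9704707, 3859 bp long, with 4 intestinal libraries and 1 germline library. The last of the 10, chrIV:16165797-16171669, was 5873 bp long. There intestinal LIN-35 replicate 1 reached q = 1.47e-280 and HPL-2 replicate 1 q = 3.79e-179, far beyond the somatic LIN-35 values of 5.65e-08 and 1.9e-09. DPL-1 replicate 1 had q = 1.82e-40 in it and EFL-1 no peak. No start at hand lay within 2000 bp of it.

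Regions without any other peak were led, after chrIV:3168692-3169278, by chrX:11379093-11379748, chrII:2962300-2962931, chrIV:11788352-11788984, chrIII:11641225-11641597 and chrII:11335588-11335959. Their larger somatic q-values ran from 1.38e-08 to 2.8e-06, and their widths from 372 to 656 bp. They were 6 of the 35 strongest LIN-35-only regions, and all but chrIV:3168692-3169278 had a larger q-value above the co-bound median of 4.51e-07. Intestinal LIN-35 and HPL-2 peaks in replicates 1 and 2 were found at 18 LIN-35-only regions (3.87%), near the 3.475% of all regions and below the 24.2% of co-bound regions. Only 1 of the 18 had no intestinal DPL-1 or EFL-1 peak (0.215% of the LIN-35-only regions, against 0.111% of all regions). It was chrX:12759510-12760070, 1936 bp from a listed start of cept-1, with somatic LIN-35 q-values of 0.00991 and 0.00939.

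Peaks in the most germline libraries were found at chrIII:10745994-10747246, 519 bp from the start of ran-1, the Ran GTPase of nuclear transport. It had 6 germline and 0 intestinal libraries. Its q-values were 3.6e-07 and 0.0001 for mex-5 LIN-35, 0.000794 and 5.5e-06 for DPL-1 and 5.2e-09 and 1.39e-33 for EFL-1, against 0.00796 and 0.00288 for somatic LIN-35. At chrII:8930650-8932114, at the start of enol-1, which encodes the glycolytic enzyme enolase, 5 germline libraries had peaks, EFL-1 replicate 3 at q = 3.02e-32, and the intestine had LIN-35 and DPL-1 in replicate 1 only. The region in the most libraries, chrII:10861673-10863596, lay 851 bp from the start of M106.3 and had 6 intestinal and 5 germline libraries.

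The other regions named for germline peaks had 4 germline libraries each. They were chrX:11645422-11645769, chrV:15028383-15029266 and chrIV:3336424-3337388, the last at F42A6.6 and 1470 bp from a start of hrpa-1, an RNA-binding protein. They had peaks in 3, 3 and 4 intestinal libraries. Among all 465 LIN-35-only regions 7 had peaks in 4 or more germline libraries (1.51%), against 1153 co-bound regions (42.1%) and 7.30% of all regions.

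Transcript starts on the files' build were at hand only for genes that the study's site tables list, 3026 genes outside chromosome V. Chromosome V was left out because its listed sites were shifted from the deposited peaks, by 90 bp in the median, against 0 or 1 bp on the other chromosomes. A listed start lay within 500 bp of 22 of the 394 LIN-35-only regions off chromosome V, against 1447 of 2302 co-bound regions. These tables were compiled from sites of the same factors, so the gap between 5.58% and 62.9% is not a measure of promoter preference.

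Among the 22 regions, 4 lay at nuclear hormone receptor genes, which encode ligand-regulated transcription factors: nhr-32, nhr-14, nhr-97 and nhr-21. Another 5 lay at transfer RNA genes. Of the 1447 co-bound regions with a start within 500 bp, 6 lay at nuclear hormone receptor genes and 55 (3.80%) at transfer RNA genes. Both groups were picked after the values were seen. The others included din-1, a cofactor of the nuclear receptor DAF-12, atf-7, a bZIP transcription factor of innate immunity, sem-5, the Grb2 adaptor of Ras signalling, nfki-1, an inhibitor of NF-kappa-B homolog, and spc-1, alpha spectrin. Genes picked here by name were picked after their values were seen, except atf-7, egl-27 and those of the ranked regions.

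The nhr-14 region, chrX:8474756-8476738, had peaks in 7 intestinal libraries and 1 germline library, and the nhr-97 region, chrIV:9756632-9757484, in 6 and 2. The nhr-21 region, chrII:7341654-7349200, was the longest of the 465 at 7547 bp and had 6 intestinal libraries and no germline library. The nhr-32 region had 4 and 1. At atf-7, chrIII:4494284-4495766, intestinal LIN-35 replicate 1 had q = 3.28e-44 and DPL-1 replicate 1 q = 2.74e-16, while somatic LIN-35 had q = 3.18e-05 and 0.00454. At egl-27 the intestinal peaks were those of LIN-35 (1.56e-11 and 0.00082), of HPL-2 (3.02e-16, 0.00603 and 8.26e-08) and of DPL-1 replicate 1 (1.9e-12), and germline EFL-1 replicate 3 had q = 6.51e-18.

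The lists of genes that LIN-35 and E2F are known for were read against the same partial tables of starts. A listed start of any gene lay within 2000 bp of 46 of the 394 LIN-35-only regions off chromosome V (11.7%) and of 1630 of 2302 co-bound regions (70.8%), so low counts at LIN-35-only regions are not a result about the gene groups. Of 17 DREAM and synthetic multivulva B genes with a start at hand, 0 had such a region within 2000 bp and 16 had a co-bound region, among them lin-9 and lin-54. Of 28 replication and mitosis genes, 0 had a LIN-35-only and 27 a co-bound region. Of 32 RNA interference and germline genes, the counts were 0 and 11. Of 16 stress response genes they were 1 (atf-7) and 13, of 5 tissue transcription factors 1 (egl-27) and 3, and of 18 intestinal metabolism genes 0 and 8, with pck-2, a phosphoenolpyruvate carboxykinase of gluconeogenesis, overlapped by a LIN-35-only region of 3154 bp. No collagen gene (1 with a start at hand) or nervous system and muscle gene (5) was next to one.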

How the data were processed

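Anti-GFP ChIP-seq peak lists of 23 libraries from 11 strains were used; 22 input samples had no list of their own, and none was labelled for HPL-2 replicate 3. The authors called peaks against input with PeakSeq (the input behind HPL-2 replicate 3 was not given in the sources used here) and deposited each peak's start, end and q-value on build WS180, up to 0.01. In 3 libraries 2 runs were combined. The read aligner was not given in the sources used here. Lists held 558 to 7556 peaks, and no read depth was used. No 2 replicates shared more than 1 peak with identical coordinates.

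Peaks were merged in Python 3.11.15 with numpy 2.4.6 and gave the same 24318 regions as bedtools 2.31.1; the steps were tested on simulated lists. Occupancy is the share of regions with any peak of a library. Ratios to co-bound regions had 0.5 added to each count. Groups of libraries were compared by two-sided exact permutation of the library labels. Replicates are labelled samples of one line, so p-values measure the spread between libraries. The regions, gene lists and tests were chosen with earlier results of these data known. Named regions were the 10 with the smallest larger LIN-35 q-value, the first 6 with no other peak, those with intestinal LIN-35 and HPL-2 in replicates 1 and 2 but no intestinal EFL-1 or DPL-1, the 6 with most germline libraries, and those at a listed gene or sequence. Symbols came from RefSeq (WBcel235, names only), matched for 3315 of 3624 genes. No region sequence was read from a genome. Alternatives covered q-value limits, merging, absence calls, matching, the X chromosome, the mex-5 strain, each library left out, and, chosen after seeing the data, list length and distance from somatic EFL-1 and DPL-1 peaks.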

Additional observations from a re-analysis of the deposited data

Results flagged for a closer look

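Of 12 groups of 4 to 9 libraries examined, 2 held a library far from the others, and chance alone flags about 1 group in 20. Among the 8 germline libraries, EFL-1 replicate 3 had a peak in 12.9% of the LIN-35-only regions, with the next library at 5.59%. Among the 4 intestinal EFL-1 and DPL-1 libraries, DPL-1 replicate 1 had a peak in 44.95%, with the next at 6.88%. Both had the longest list of their group, at 7074 and 7556 peaks.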

How the results depend on the processing

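The number of LIN-35-only regions was 291 with q below 0.001, 147 with q below 1e-05 and 1051 when a factor counted as absent unless both replicates had a peak, and 467 to 2163 when 1 somatic library was left out (2163 without somatic LIN-35 replicate 1, 1952 without replicate 2). The tissue difference in share, 15.03 points with exact permutation p = 0.039, passed 0.05 no longer with q below 1e-05 (16.43), without the mex-5 libraries (14.7), or with the 1249 (1.90) or 558 (0.51) peaks of lowest q-value; leaving out 1 library gave 4.85 to 17.4, and p was above 0.05 without somatic LIN-35 replicate 1 (8.76) or 2 (4.85), intestinal LIN-35 replicate 1 (13.4), HPL-2 replicate 1 (12.7) or 3 (13.5), or DPL-1 replicate 1 (11.8). The tissue difference in log2 ratio, 0.49, turned to -0.87 with 1249 peaks and to -0.051 without somatic LIN-35 replicate 2, and ran from -0.051 to 1.19 when 1 library was left out. The factor difference in the intestine, 3.21 with exact permutation p = 0.048, kept its direction and passed 0.05 no longer with q below 1e-05 (3.73), with absence unless both replicates had a peak (2.03), without X (3.01) or with the replicate block (3.21, p = 0.083). Without 1 library it was 1.93 to 4.41 and stayed under 0.05 without DPL-1 replicate 1 (4.41), whereas p was 0.089 to 0.14 without any other intestinal library, among them EFL-1 replicate 3 (1.93); fewer libraries allow fewer assignments. The LIN-35 difference, 1.31, turned to -0.67 with 558 peaks and was 0.02 with 1249, 2.84 with q below 0.001, 0.63 with q below 1e-05 and 0.75 at matched q-values. Without 1 library it was 0.39 to 1.76, the lowest without somatic LIN-35 replicate 2 (exact permutation p = 0.47) and 0.87 without intestinal LIN-35 replicate 1. The mean log2 ratio over all 17 libraries stayed below 0, at -1.16 against all other regions and -5.44 with 558 peaks. Apart from these, the sign and the side of 0.05 did not change in the alternatives run; the causes were not tested. The replicate numbers are shared labels of different strains, not pairs. Shallow lists limit all shares, since a region without a peak may be bound below detection.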
